A study of Mus musculus with 9 samples.

Results

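The 79 genes described here encode the subunits of the mitochondrial respiratory chain and of ATP synthase that are made from nuclear genes. They were chosen by symbol and not by any measured value, as the symbols that begin with Nduf and a letter from a, b, c, s or v with a digit, the succinate dehydrogenase genes Sdha to Sdhd, and the symbols that begin with Uqcr, with Cox and a digit from 4 to 8, or with Atp5. They are 79 of the 15109 genes measured, and 5 pseudogene copies that matched were left out. By complex they are 35 genes of NADH dehydrogenase (complex I), 4 of succinate dehydrogenase (complex II), 8 of the cytochrome bc1 complex (complex III), 15 of cytochrome c oxidase (complex IV) and 17 of ATP synthase. Ndufa4, named for complex I, was counted with complex IV, where its protein is now known to sit.

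RNA came from mast cells grown out of the bone marrow of wild-type C57BL/6 mice for at least 4 weeks in medium with 30% supernatant of WEHI-3 cells, which supplies interleukin 3, and 20% serum. The 9 libraries fall into 3 groups of 3. Control cells were untreated. BSA cells were sensitised with IgE against the hapten DNP and then stimulated with DNP-BSA, which crosslinks that IgE on its receptor. Taxinine cells received the same IgE and antigen with a pretreatment of 1 h with taxinine, a taxane-type diterpenoid of yew. BSA against Control therefore joins sensitisation and crosslinking, and Taxinine against BSA joins taxinine and whatever it was dissolved in, since the labels give no vehicle, no dose and no group with taxinine alone. The labels call the samples biological replicates without naming separate animals or cultures, so p-values reflect only how far these samples spread, and that spread may be technical.

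The respiratory chain passes electrons from NADH (complex I) and succinate (complex II) through complex III and cytochrome c to oxygen at complex IV. Complexes I, III and IV pump protons across the inner mitochondrial membrane, and ATP synthase lets them return through its ring of c subunits while its alpha and beta subunits make ATP. Apart from complex II, each assembly also needs core subunits from the mitochondrial genome, which are not analysed here. In mast cells, mitochondria supply part of the energy for degranulation and cytokine secretion and take up calcium during activation.

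Total counts ranged from 8975371 to 14116976 per library. All 16 genes of the mast cell marker list were measured, with a summed level of 58209 to 59840 CPM (counts as parts of a scaled library total) in Control, 64152 to 66337 in BSA and 63938 to 65375 in Taxinine. With the scaling named below, 9 of the 16 were called higher and 1 lower in BSA than in Control. Of all genes, 16.2% were called higher and 17.8% lower. Among genes with a mean of at least 10 CPM these shares were 24.2% and 21.9%. Markers of neutrophils (3 of 10 measured), B cells (2 of 5) and T cells (1 of 6) summed to at most 2.69, 2.28 and 0.380 CPM. The erythroid list (2 of 6) summed to 31.9 to 40.6 CPM. The basophil and megakaryocyte lists (5 of 5 each) hold genes that mast cells also transcribe. Their sums were lower in each Taxinine library (1244 to 1264 and 1796 to 1833 CPM) than in any BSA library (1340 to 1385 and 1857 to 1977) or Control library (1363 to 1386 and 1874 to 1912). Macrophage markers (9 of 10) summed to 74.0 to 77.2 CPM in the Control libraries, to 88.8 to 97.9 with antigen and to 79.3 to 84.0 with taxinine and antigen. Of the 9 macrophage genes, 8 had a positive log2 fold change in BSA against Control (median 0.57) and 1 in Taxinine against BSA (median -0.42). Adgre1, Lyz2 and Cd14 were called higher in BSA than in Control, and Lyz2 lower in Taxinine than in BSA. Csf1r, Marco, Mrc1, C1qb and C1qc had group means between 0.0771 and 1.02 CPM. The part of these lists in the results was not tested. All levels are CPM over totals scaled with TMM (trimmed mean of M values), a method that sets the bulk of genes equal between libraries. The TMM factors lay between 1.102 and 1.107 for Control libraries, 0.941 and 0.947 for BSA, and 0.957 and 0.963 for Taxinine.

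The promoters of 4 genes on which the comparisons turn are printed first: Cox5a, Cox5b and Cox8a of complex IV, which had the 3 largest called falls in Taxinine against BSA, and Ndufs3 of complex I, the gene called lower in BSA than in Control. Each window runs from 250 bases before the start of the gene to 50 bases from it, 5′ to 3′ on the gene's own strand, and comes from RefSeq on GRCm38.p6. Capitals mark matches, on either strand, to the motifs GCATGC or GCGCA (the centre and an arm of the nuclear respiratory factor NRF1 site), CCGGAAG (the ETS motif that GABP, also called NRF2 in this field, binds), AAGATGG (YY1) and CCAAT. The windows are chr9:57520982-57521281 (+) for Cox5a, chr1:36691237-36691536 (+) for Cox5b, chr19:7217567-7217866 (-) for Cox8a and chr2:90904672-90904971 (-) for Ndufs3.
Cox5a: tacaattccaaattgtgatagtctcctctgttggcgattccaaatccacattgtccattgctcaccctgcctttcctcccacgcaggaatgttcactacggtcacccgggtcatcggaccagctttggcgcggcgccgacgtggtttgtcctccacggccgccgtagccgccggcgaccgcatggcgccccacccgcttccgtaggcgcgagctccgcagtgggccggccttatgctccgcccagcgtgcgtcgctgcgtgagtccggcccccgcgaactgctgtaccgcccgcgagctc
Cox5b: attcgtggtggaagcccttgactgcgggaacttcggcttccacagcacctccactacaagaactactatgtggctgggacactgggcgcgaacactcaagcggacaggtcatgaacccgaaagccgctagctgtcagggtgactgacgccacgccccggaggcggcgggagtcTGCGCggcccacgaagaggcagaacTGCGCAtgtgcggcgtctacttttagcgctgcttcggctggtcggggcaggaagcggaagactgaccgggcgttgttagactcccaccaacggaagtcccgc
Cox8a: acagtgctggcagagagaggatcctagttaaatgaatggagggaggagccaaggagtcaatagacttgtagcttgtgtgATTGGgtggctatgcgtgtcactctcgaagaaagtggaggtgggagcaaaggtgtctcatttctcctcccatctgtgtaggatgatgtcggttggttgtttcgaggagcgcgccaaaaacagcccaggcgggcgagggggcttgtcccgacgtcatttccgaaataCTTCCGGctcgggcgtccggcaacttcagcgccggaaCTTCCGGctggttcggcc
Ndufs3: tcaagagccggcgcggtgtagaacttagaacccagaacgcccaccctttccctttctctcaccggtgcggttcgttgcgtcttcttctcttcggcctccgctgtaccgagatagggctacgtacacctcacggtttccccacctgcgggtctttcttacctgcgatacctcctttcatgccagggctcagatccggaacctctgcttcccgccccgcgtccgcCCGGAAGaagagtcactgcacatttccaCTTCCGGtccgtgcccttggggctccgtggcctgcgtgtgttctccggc
Cox5b held 3 matches to the NRF1 arm, of which a pair overlaps. Cox8a held 2 ETS matches and 1 CCAAT box on the reverse strand, Ndufs3 held 2 ETS matches in opposite orientation, and the Cox5a window held none of these letters. The 3 complex IV genes therefore share no motif of this set in these windows. Of the 79 subunit genes, 66 had a window, 71 windows in all. GCATGC was in 18.3% of these against 7.93% of the 32851 windows of all genes, GCGCA in 64.8% against 30.4%, CCGGAAG in 23.9% against 8.86%, AAGATGG in 15.5% against 6.34% and CCAAT in 42.3% against 37.4%. Base composition differed too: the median window of a subunit gene held 19 CG dinucleotides against 7 over all genes, and GCGCA itself contains one. A match is a run of letters and was not tested as a binding site.

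Levels between genes were compared as the mean CPM of the 9 libraries per kilobase of transcript, where the length is the median over the gene's consensus coding transcripts. Atp5b and Atp5a1, the catalytic beta and noncatalytic alpha subunits of the ATP synthase head, stood highest of the 79 genes at 331 and 238 CPM per kilobase. Cox8a led complex IV at 175, and Uqcrh, the acidic hinge protein that helps cytochrome c bind, led complex III at 162. Ndufa6, an accessory subunit of complex I, reached 79.1, and Sdhd, a membrane anchor of succinate dehydrogenase, reached 72.7. A pair of core subunits of complex I lay lower than the head of ATP synthase: Ndufv1, which binds NADH, was at 37.5 and the iron-sulphur subunit Ndufs1 at 25.4 CPM per kilobase. Cox5a, which had the largest called change among the subunit genes, was the fourth lowest of the 15 complex IV genes at 34.5.

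**Figure D1:**
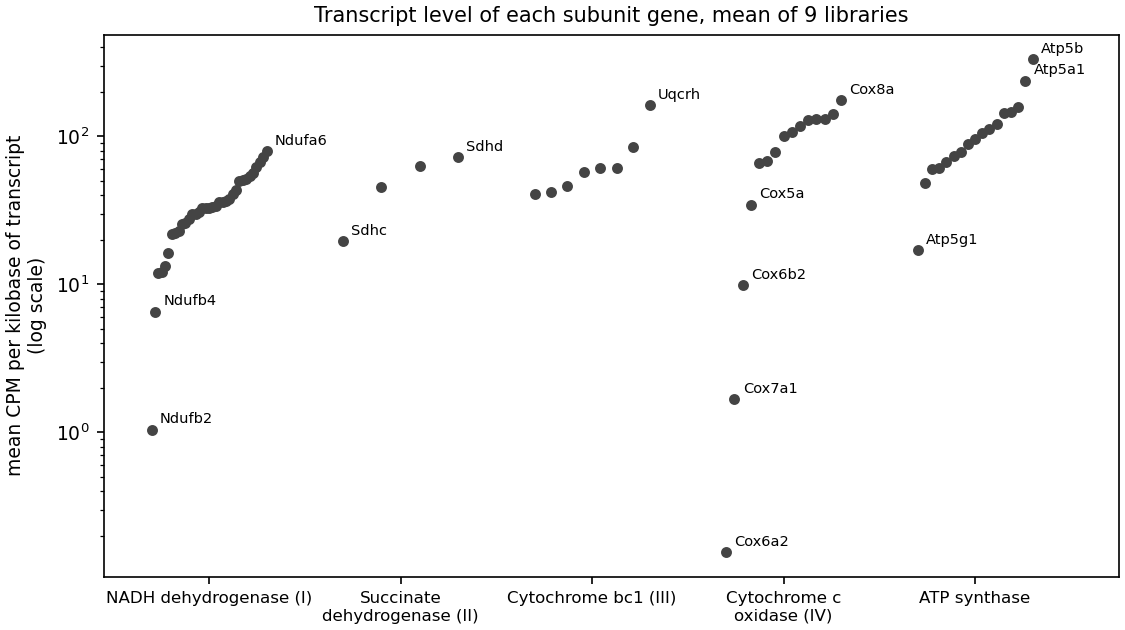
Mean level of each of the 79 subunit genes over the 9 libraries, in CPM per kilobase of transcript on a log scale, ordered within each complex; each point is 1 gene. ATP synthase holds the 2 highest genes (Atp5b 331, Atp5a1 238), and the isoforms Cox6a2 (0.155) and Cox7a1 (1.68) lie far below the rest of complex IV.

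Several subunits exist as isoforms that tissues use differently. The general isoforms Cox6a1, Cox6b1 and Cox7a2 gave 130, 142 and 68.1 CPM per kilobase. Cox6a2 and Cox7a1, known from heart and skeletal muscle, gave 0.155 and 1.68, and Cox6b2, known from testis, gave 9.92. Cox6a2 had 0, 1 and 4 counts in the Control libraries, 2, 1 and 1 in BSA, and 0, 0 and 4 in Taxinine, so a difference in it was not detectable at this depth. Cox7a1 had 4 to 12 counts per library and a level of 0.458 to 0.576 CPM in Control libraries, 0.315 to 0.728 in BSA and 0.856 to 1.04 in Taxinine. Its Taxinine libraries lay above all others, but the difference from BSA did not pass the test (log2 fold change 0.83 ± 0.45 SE, adjusted p = 0.312 by edgeR's quasi-likelihood test). Cox7a2l, whose protein helps join complexes III and IV into supercomplexes, was at 108. The c subunit of the ATP synthase ring is encoded by Atp5g1, Atp5g2 and Atp5g3, which differ in their import peptides but give the same mature protein. Atp5g3 gave 42.0 to 46.4% of their summed CPM per library, Atp5g2 30.2 to 36.2% and Atp5g1 20.6 to 25.2%, with overlapping ranges in the 3 groups. Of the windows of 1 read length in their transcripts, 48.1% in Atp5g1 and 41.3% in Atp5g2 also occur in other genes. For Atp5g3 this was 0%. The shares were not corrected for this, so the order of the 3 genes is uncertain.

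The first comparison asks how subunit transcripts stood in antigen-activated cells against untreated cells. With TMM scaling, 15 of the 79 genes were higher in BSA and 1 was lower, but when libraries were scaled by their total counts 0 were higher and 48 lower, so the direction for the set depends on the scaling. Of all genes, total count scaling called 7.15% higher and 45.6% lower. The calls at TMM scaling are 20.3% of the subunit genes, against 34% of all genes (16.2% higher, 17.8% lower) and 46.1% of the 8309 genes with a mean of at least 10 CPM, which include 72 of the subunit genes. The changes were small. The median log2 fold change was 0.038 for the subunit genes and -0.0041 for all genes. The median size without sign was 0.0892 for the subunit genes, 0.218 for all genes and 0.146 for genes of at least 10 CPM. For 75 of the 79 genes the 95% interval of the difference lay within 1.5-fold in either direction, and 0 of the called genes changed over 1.5-fold. By contrast, the share of all counts that fell on the 79 genes was 0.551, 0.586 and 0.551% in the Control libraries, and 0.513, 0.487 and 0.518% in BSA, lower in each BSA library than in any Control library. With total count scaling the median was -0.19 for the subunit genes and -0.23 for all genes. The 2 scalings thus differ by a shift that all genes share, and a change in the subunit transcripts cannot be told apart from a change in the total they are set against. In bulk RNA, fewer cells of a type and less RNA per cell cannot be told apart either.

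At TMM scaling, complex IV and ATP synthase held most of the genes called higher, while total counts gave 0 higher genes in any complex. The shares called higher were 46.7% in complex IV, 29.4% in ATP synthase and 25.0% in complex III, and less in complexes I and II. Beside these stand 16.2% of all genes and 24.2% of those of at least 10 CPM. At TMM scaling the counts of higher and lower genes were 1 and 1 of 35 in complex I, 0 and 0 of 4 in complex II, 2 and 0 of 8 in complex III, 7 and 0 of 15 in complex IV, and 5 and 0 of 17 in ATP synthase. The medians were -0.038, 0.044, 0.10, 0.082 and 0.10 in that order. No test compared the complexes with each other. Summed levels show the same sizes: the complex IV genes summed to 853 ± 43.9 CPM (SD, n = 3) in Control and 927 ± 56.8 in BSA, ATP synthase to 2270 ± 75.2 and 2437 ± 78.6, complex III to 451 ± 8.30 and 492 ± 21.7, complex II to 380 ± 9.72 and 391 ± 12.2, and complex I to 1142 ± 36.2 and 1120 ± 30.7. At TMM scaling each BSA library (467 to 508 CPM) lay above each Control library (441 to 457) in complex III. In the sums of the other complexes the 2 groups overlapped. Among single genes, 42.9% of all genes had no overlap. The order in complex III rests on TMM scaling, and sums over plain totals are not given. With total counts its called genes Uqcrh and Uqcrfs1 gave 0.03 and -0.02.

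**Figure D2:**
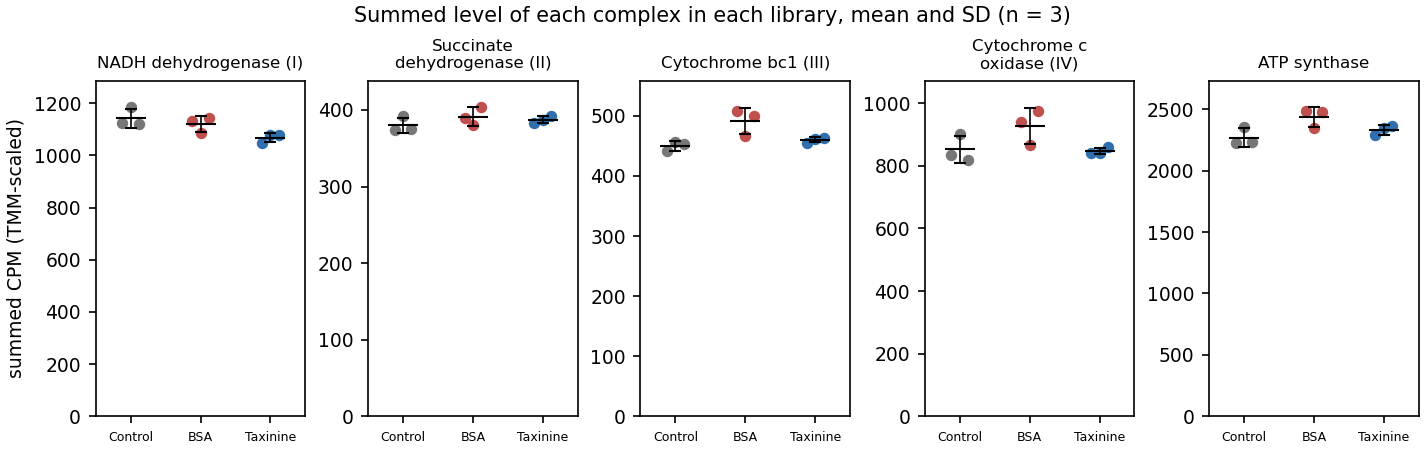
Summed level of the genes of each complex in each library, in TMM-scaled CPM from 0; points are libraries, and bars the mean and SD of 3 libraries per group. The complex III sum is 441 to 457 CPM in Control and 467 to 508 in BSA, while the sums of the other complexes overlap between these groups. The order in complex III rests on TMM scaling.

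Ndufs3, a core subunit of the arm of complex I that carries electrons to quinone, was the single subunit gene called lower in BSA. Control replicates 1 to 3 had 38.9, 39.9 and 37.4 CPM, the BSA libraries 32.4, 32.2 and 30.9, and the Taxinine libraries 31.4, 35.0 and 31.4. Each activated library lay below each Control library. The log2 fold change in BSA against Control was -0.28 ± 0.07 (SE; adjusted p = 0.000843 by edgeR's quasi-likelihood test), and the gene was called lower in each of the 17 alternative settings, with values from -0.51 to -0.26 and adjusted p of at most 0.00540. A measure free of library scaling gave the same order: Ndufs3 held 3.34 to 3.46% of the counts of the complex I genes in Control and 2.704 to 2.96% in BSA. An exact permutation test of these shares gave p = 0.1, the smallest possible with 3 against 3. These shares, like those below, were computed only for genes called in at least 1 comparison of the same counts. They are therefore not an independent test. Ndufs3 lies at GRCm38 chromosome 2, 90894634 to 90904827 on the minus strand. Its exons overlap Kbtbd4 on the other strand (5.16 CPM in Control, 3.87 in BSA), and 19.6% of its windows of 1 read length also occur in the pseudogene Gm12251, so some reads could be assigned to either. The core subunits Ndufs1 (-0.10 ± 0.06) and Ndufv1 (-0.10 ± 0.06) did not pass the test.

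Among genes higher in BSA, Cox5a changed most. Cox5a is the regulatory subunit of complex IV that is known to bind the thyroid hormone diiodothyronine. Its level was 23.8, 22.1 and 18.7 CPM in Control and 26.2, 24.2 and 31.5 in BSA, so that no BSA library fell below Control, but the highest Control and lowest BSA libraries lay close together. The log2 fold change was 0.33 ± 0.09 (edgeR, adjusted p = 0.00287); it was 0.11 and not called with total count scaling (adjusted p = 0.336), and leaving out Control replicate 3 (0.24, adjusted p = 0.0532) or BSA replicate 3 (0.23, adjusted p = 0.0648) ended the call. As a share of complex IV counts, Cox5a overlapped between Control (2.28 to 2.85%) and BSA (2.79 to 3.22%).

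Uqcrh and Uqcrfs1, the Rieske iron-sulphur protein, were the called genes of complex III. Uqcrh was at 78.9, 80.9 and 83.1 CPM in Control and 99.4, 89.4 and 102 in BSA, a log2 fold change of 0.26 ± 0.05 (edgeR, adjusted p = 0.000144), and 0.03 and not called with total count scaling. Its share of complex III counts was 17.7 to 18.3% in Control and 19.1 to 20.4% in BSA, without overlap. Uqcrfs1 was at 51.6, 53.4 and 52.3 CPM in Control and 66.5, 57.8 and 57.3 in BSA (0.21 ± 0.06, adjusted p = 0.00643). It was not called without BSA replicate 1 (0.14, adjusted p = 0.126), and its value with total count scaling was -0.02.

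In ATP synthase the called genes were Atp5b, Atp5a1, Atp5pb (the b subunit of the peripheral stalk), Atp5l (subunit g) and Atp5g3. Atp5b was at 583, 620 and 578 CPM in Control and 670, 642 and 675 in BSA, above Control in each library. Its log2 fold change was 0.16 ± 0.04 (edgeR, adjusted p = 0.00155) at TMM scaling and -0.07 at total count scaling, where it was not called. Its share of ATP synthase counts was 25.9 to 26.3% in Control and 26.9 to 27.4% in BSA. Atp5pb went from 220, 218 and 213 to 249, 230 and 246 CPM (0.16 ± 0.04, adjusted p = 0.00349; -0.07 with total counts). Atp5l (0.18), Atp5g3 (0.15) and Atp5a1 (0.10) had adjusted p from 0.0274 to 0.0462 and also turned negative with total counts. Of Atp5l, 68.7% of windows of 1 read length are shared with other genes, mostly pseudogenes, so its level is uncertain.

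The other complex IV genes called higher at TMM scaling were Cox8a (0.18), Cox5b (0.18), Cox6a1 (0.17), Cox6b1 (0.15), Cox7a2l (0.14) and Cox4i1 (0.13), with adjusted p from 0.00792 to 0.0331, and each of them was negative with total counts. In 4 of these 6, Cox8a, Cox5b, Cox6a1 and Cox7a2l, the libraries of the 2 groups overlapped. Ndufa1, a membrane-arm accessory subunit of complex I, was at 29.5, 33.2 and 26.8 CPM in Control and 34.5, 33.7 and 34.3 in BSA (0.19 ± 0.07, adjusted p = 0.0369; -0.03 with total counts). The 4 genes of succinate dehydrogenase did not pass the test: Sdha, which oxidises succinate, gave 0.06 ± 0.04, the iron-sulphur subunit Sdhb 0.08 ± 0.06, and the anchors Sdhc and Sdhd 0.03 ± 0.06 and -0.02 ± 0.05. Over all 79 genes the libraries of the 2 groups did not overlap in 18, against 42.9% of all genes (20.2% with every BSA library higher, 22.7% with every one lower). Of the 15 higher calls, 3 (Atp5b, Atp5pb and Uqcrh) held whichever library was left out. The count fell to 4 without Control replicate 3, to 5 and 6 without BSA replicates 3 and 1 and to 8 without Control replicate 1; upper quartile scaling gave 6.

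**Figure D3:**
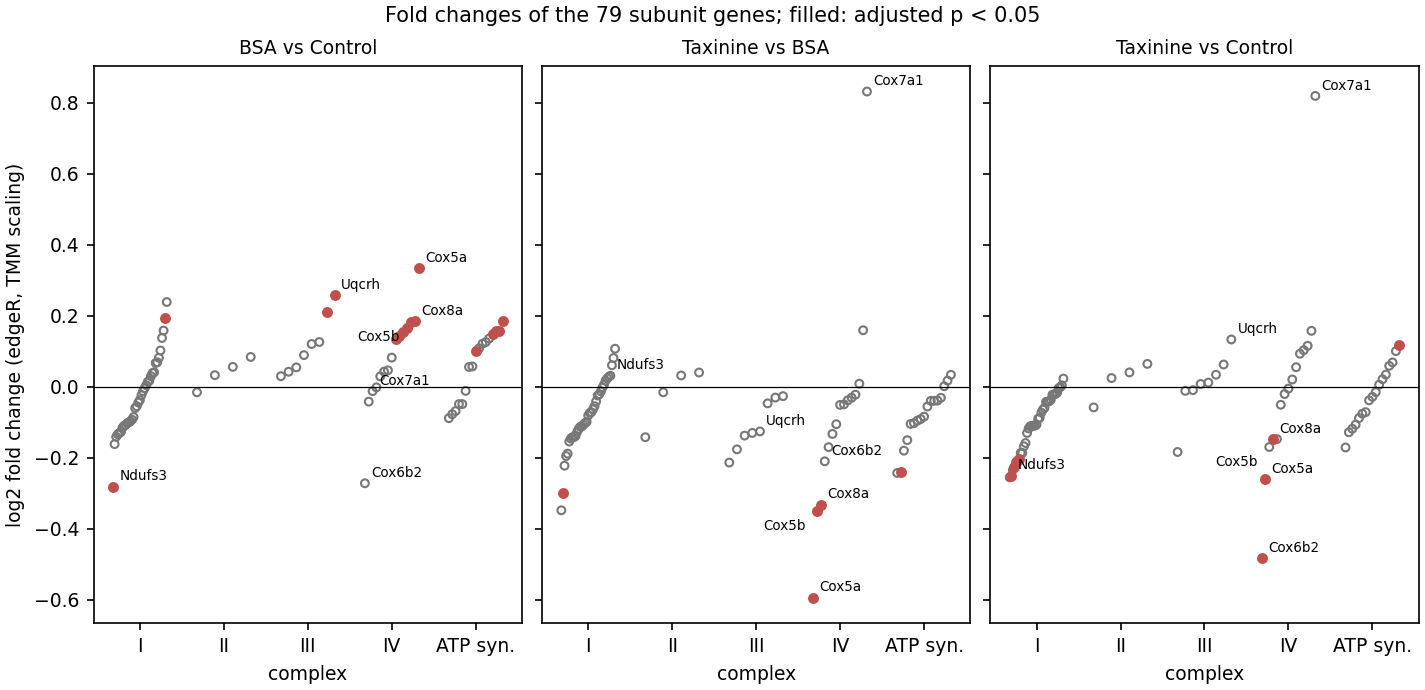
Log2 fold change of each of the 79 subunit genes (edgeR, TMM scaling) in the 3 comparisons, ordered within each complex; filled points passed adjusted p under 0.05. In BSA against Control the values run from -0.28 (Ndufs3) to 0.33 (Cox5a), and in Taxinine against BSA the lowest is Cox5a at -0.59.

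The second comparison asks how taxinine before antigen differed from antigen alone. Of the 79 genes, 0 were higher and 5 lower in Taxinine than in BSA: Cox5a, Cox5b and Cox8a of complex IV, Ndufa1 of complex I and Atp5d of ATP synthase. These are 6.33% of the subunit genes, close to the 6.98% of all genes called (2.86% higher, 4.12% lower) and below the 11.4% among genes of at least 10 CPM (4.67% higher, 6.76% lower). The median log2 fold change was -0.081 for the subunit genes and 0.0021 for all genes, and 63 of the 79 values were negative. This comparison depended little on scaling: 5 genes were called lower with total counts as well (3.15% of all genes lower, 4.28% higher), and 6 with upper quartile scaling, with 0 higher in both. The share of all counts on the 79 genes was 0.483, 0.492 and 0.494% in Taxinine, which overlapped with BSA (0.487 to 0.518%). This comparison and the first both use the BSA libraries, so opposite signs in them are not independent.

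Cox5a showed the largest fall. Its level was 26.2, 24.2 and 31.5 CPM in BSA and 17.2, 17.3 and 19.1 in Taxinine, with each Taxinine library below each BSA library. The log2 fold change was -0.59 ± 0.10 (adjusted p = 4.34e-05 by edgeR's quasi-likelihood test; 95% interval -0.79 to -0.40), the single called change over 1.5-fold among the subunit genes in the 3 comparisons. It was called in each of the 17 alternatives, with values from -0.67 to -0.49 and adjusted p of at most 0.00191. Within complex IV, Cox5a took 2.79 to 3.22% of counts in BSA and 2.05 to 2.23% in Taxinine, below Control (2.28 to 2.85%) as well; the exact permutation p was 0.1 for each of these, the smallest possible. Cox5a lies at GRCm38 chromosome 9, 57521274 to 57532426. The antisense gene Gm26631, which overlaps its exons, was at 0.567 CPM in Control, 0.532 in BSA and 0.617 in Taxinine. With windows read on either strand, 13.2% of those of Cox5a are shared with Gm26631 and with no other gene.

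Cox5b and Cox8a fell as well. Cox5b, the zinc-binding subunit on the matrix side of the complex, was at 75.8, 67.4 and 84.7 CPM in BSA and 60.9, 57.8 and 59.6 in Taxinine, a log2 fold change of -0.35 ± 0.07 (edgeR, adjusted p = 0.000853). Cox8a, a small membrane-spanning subunit, was at 106, 100 and 117 CPM in BSA and 84.4, 84.3 and 87.9 in Taxinine (-0.33 ± 0.06, adjusted p = 0.000118). For both, no Taxinine library reached a BSA library, and both were called in each of the 17 alternatives, from -0.43 to -0.27 and from -0.38 to -0.27. Their shares of complex IV counts were also lower without overlap: 7.79 to 8.67% against 6.88 to 7.23% for Cox5b, and 11.3 to 12.03% against 10.02 to 10.23% for Cox8a. For Cox4i1, the regulatory subunit IV, the share overlapped (10.6 to 11.7% in BSA, 11.6 to 12.4% in Taxinine), and the fold change was -0.03 ± 0.05 with a 95% interval from -0.13 to 0.07. Cox6a1 (-0.17 ± 0.06, adjusted p = 0.0807), Cox6b1 (-0.04 ± 0.05), Cox7a2l (-0.05 ± 0.05) and Ndufa4 (0.01 ± 0.07) did not pass the test.

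**Figure D4:**
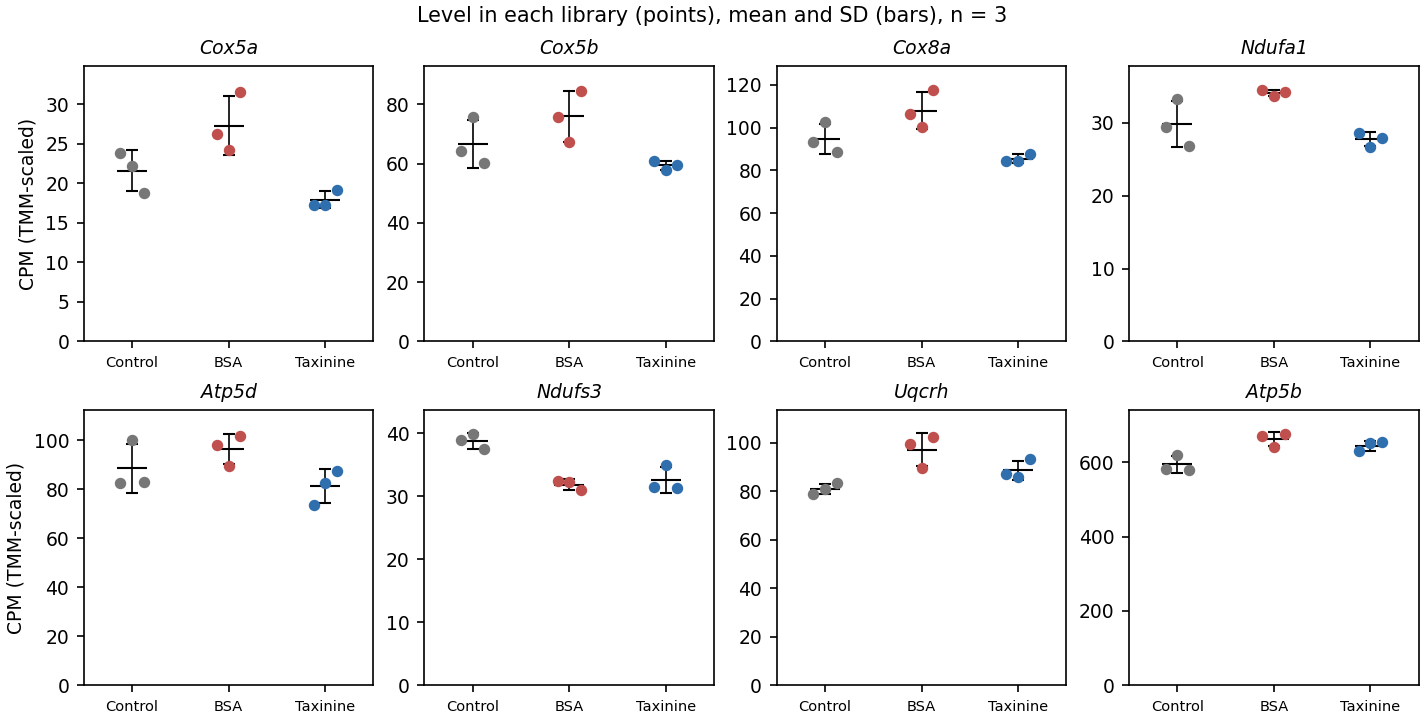
Level of 8 subunit genes in each library, in TMM-scaled CPM from 0; points are libraries, and bars the mean and SD of 3 libraries per group. Cox5a is 24.2 to 31.5 CPM in BSA and 17.2 to 19.1 in Taxinine, and Ndufs3 is 37.4 to 39.9 in Control and 30.9 to 35.0 in the activated libraries.

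Ndufa1 was at 28.6, 26.7 and 28.0 CPM in Taxinine, below the 33.7 to 34.5 of BSA (-0.30 ± 0.08, adjusted p = 0.0115), and lost its call without Taxinine replicate 2 (-0.27, adjusted p = 0.0805). Atp5d, the delta subunit of the central stalk, was at 98.0, 89.5 and 102 CPM in BSA and 73.6, 82.5 and 87.3 in Taxinine (-0.24 ± 0.07, adjusted p = 0.0165). Atp5d was not called when Taxinine replicate 1 or 2 or BSA replicate 1 or 3 was left out, with adjusted p up to 0.170. The catalytic subunit Atp5b differed by -0.04 ± 0.04 and Atp5a1 by -0.03 ± 0.04, with 95% intervals from -0.12 to 0.04 and -0.11 to 0.05. Complexes II and III had 0 called genes, and DESeq2 called the same 5 genes as edgeR among all 79. At an unadjusted p under 0.05 by edgeR's test, those complexes had 1 and 4 genes. The share of all genes under that limit was not computed. The complex III values were all negative, from -0.21 (Uqcr11, a small accessory subunit) to -0.03, as were 63 of all 79 values. Taxinine and BSA libraries stood apart without overlap in 20 of the 79 genes, against 23.9% of all genes. Without BSA replicate 2 the count of lower genes was 9. Over all genes, the count of 1055 called genes was 659, 616 and 699 without Taxinine replicates 1, 2 and 3.

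The third comparison sets taxinine plus antigen against untreated cells, and shares libraries with each of the others. With TMM scaling 1 gene, Atp5b, was higher and 8 were lower, 11.4% of the subunit genes against 33.1% of all genes (15.9% higher, 17.2% lower) and 45.5% of those of at least 10 CPM. With total count scaling 0 were higher and 65 lower, when 7.31% of all genes were called higher and 41.6% lower and the median of all genes was -0.21. The median at TMM scaling was -0.043, and -0.011 for all genes. Complex I held 5 of the lower genes. Ndufs3 (-0.25 ± 0.07, edgeR, adjusted p = 0.00362) was called in each of the 17 alternatives, from -0.45 to -0.22. Ndufa13, the accessory subunit also known as GRIM-19, was at 36.4, 37.8 and 35.3 CPM in Control and 28.8, 34.6 and 30.0 in Taxinine (-0.23 ± 0.07, adjusted p = 0.0117). Ndufs7, which carries the terminal iron-sulphur cluster, was at 31.8, 31.2 and 31.2 and at 27.1, 27.7 and 26.6 CPM (-0.21 ± 0.07, adjusted p = 0.0199). The accessory subunits Ndufb10 (-0.21 ± 0.07) and Ndufv3 (-0.20 ± 0.07) completed the 5. Negative values were 33 of the 35 in complex I and 55 of all 79, and the share over all genes was not computed.

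In complex IV, Cox6b2 was at 5.82, 5.05 and 5.36 CPM in Control and 4.74, 3.52 and 3.55 in Taxinine (-0.48 ± 0.17, edgeR, adjusted p = 0.0223), Cox5a was lower by a log2 fold change of -0.26 ± 0.10 (adjusted p = 0.0376), with overlapping libraries, and Cox8a by -0.15 ± 0.06 (adjusted p = 0.0458). Atp5b was higher at 629, 651 and 654 against 583, 620 and 578 CPM (0.12 ± 0.04, adjusted p = 0.0188), but -0.08 and not called with total counts. Taxinine and Control libraries stood apart without overlap in 19 of the 79 genes, against 43.7% of all genes (20.9% with every Taxinine library higher, 22.8% lower). The calls were fragile. Of the lower genes, Ndufs3 alone held in each alternative; the count was 4 without Control replicate 2, 5 and 3 without Taxinine replicates 1 and 3, and 2 with DESeq2. The higher count was 0 without Control replicate 1 or 3 or Taxinine replicate 2 or 3, and 2 without Control replicate 2 or BSA replicate 2 or 3.

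**Figure D5:**
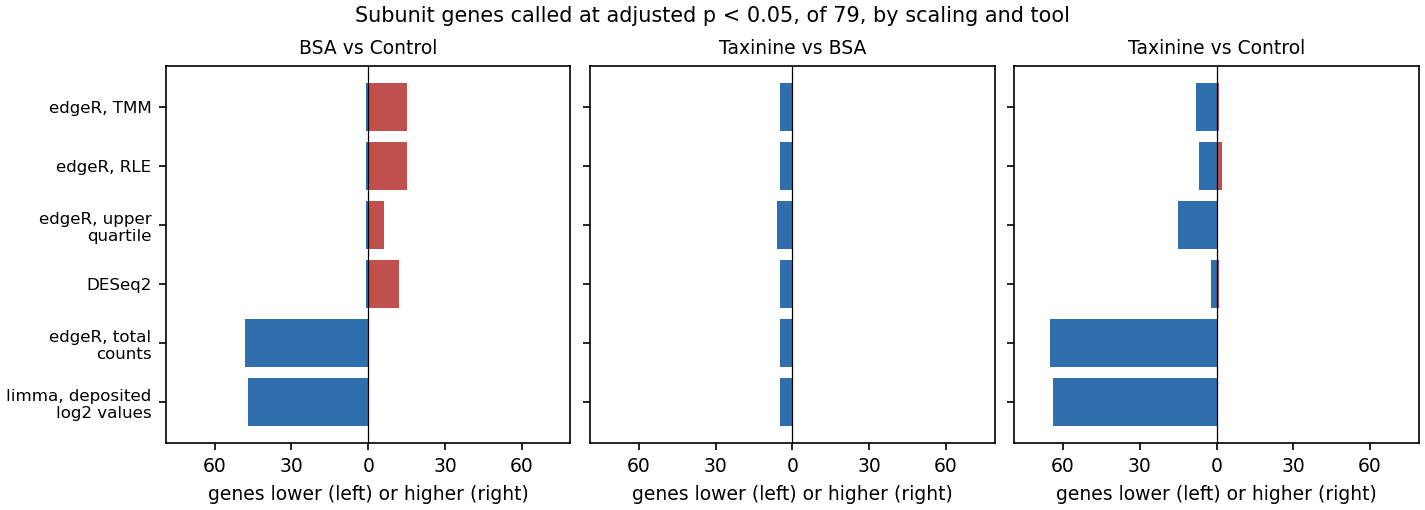
Number of the 79 subunit genes called higher (right, red) or lower (left, blue) at adjusted p under 0.05 by each scaling or tool, for the 3 comparisons. Taxinine against BSA gives 5 or 6 lower genes and 0 higher under each, while the comparisons with Control change from 15 higher and 1 lower to 0 and 48, and from 1 and 8 to 0 and 65, with total counts.

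Genes that work with the subunits were described from lists written from general knowledge. Their counts in BSA against Control stand beside 16.2% of all genes called higher and 17.8% called lower with TMM scaling, and 7.15% and 45.6% with total counts. Of 48 measured assembly factors, which build the complexes and are not part of them, 1 was higher and 13 lower in BSA than in Control, with a median log2 fold change of -0.15 against -0.0041 for all genes, and 0 and 29 with total counts. Tmem126b, an assembly factor of the membrane arm of complex I, was at 19.0, 22.6 and 18.2 CPM in Control and 10.02, 10.2 and 9.09 in BSA (-1.03 ± 0.10), and Taxinine libraries gave 10.7 to 11.0. Sco1, a copper carrier for complex IV, changed by -0.55 ± 0.11, Ndufaf1 by -0.47 ± 0.10, and Cox15, an enzyme of heme A synthesis, by -0.31 ± 0.06. In Taxinine against BSA 0 assembly factors passed in either direction (edgeR), and against Control 2 were higher and 17 lower (11 lower without Taxinine replicate 2; 0 and 31 with total counts).

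Of 7 subunits or partners outside the symbol rule, Cycs, which is cytochrome c, was higher in BSA (36.7 ± 1.78 CPM in Control, 49.5 ± 2.30 in BSA; 0.43 ± 0.07, and 0.20 with total counts), and Ndufab1, the mitochondrial acyl carrier protein and a complex I subunit, was lower (18.2 ± 1.40 and 13.1 ± 1.79 CPM; -0.47 ± 0.10). Of 15 regulators of mitochondrial gene expression, 1 was higher and 5 lower (1 and 10 with total counts): Gabpb1, a subunit of GABP, by 0.42 ± 0.06, and among the lower Ssbp1, which binds mitochondrial single-stranded DNA (-0.55 ± 0.09), the helicase Twnk (-0.36 ± 0.09) and the transcription factor Tfb2m (-0.33 ± 0.08). Of 78 genes in the mitochondrial ribosome list, which keeps the pseudogene Mrpl23-ps1, 4 were higher and 22 lower, and 1 and 59 with total counts. Among the lower were Mrpl49 (-0.80 ± 0.09), Mrpl44 (-0.69 ± 0.10) and Mrpl33 (-0.57 ± 0.09). The count of lower ribosome genes was 13 without BSA replicate 2 and 14 without Control replicate 3, and that of higher ones was 2 without BSA replicate 3 or Control replicate 3. Mrps6 was higher (0.78 ± 0.12); the transporter gene Slc5a3 lies within its locus, so reads may be shared. Of 20 genes of pyruvate oxidation and the citric acid cycle, 5 were higher and 1 lower at TMM scaling (0 and 14 with total counts), with Pdha1 at 0.23 ± 0.06, Ogdh at 0.17 ± 0.05 and Mdh2 at 0.16 ± 0.05. Without BSA replicate 3 the count of higher genes in that list was 2. In Taxinine against BSA 2 genes passed in these 4 lists, Mrpl49 (0.37 ± 0.10) and Mrps6 (0.41 ± 0.11), both higher in Taxinine, where 2.86% of all genes were higher. Leaving out 1 library at a time gave 0 to 3 higher ribosome genes in that comparison, with 0 without BSA replicate 1 or Taxinine replicate 1. In Taxinine against Control the higher and lower counts were 2 and 1 of the 7 outside the rule, 1 and 4 of the regulators, 1 and 12 of the ribosome genes and 2 and 0 of the citric acid cycle list, against 15.9% and 17.2% of all genes. With total counts they were 0 and 2, 1 and 9, 1 and 57, and 0 and 14 in the same order, against 7.31% and 41.6% of all genes, so the direction of the citric acid cycle list turned.

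Counting can blur some of these genes. The exons of 27 of the 79 overlap another gene in the annotation, 24 of them a gene on the other strand, and the strand setting of the counting is not given in the sources used here. For 29 genes at least 1 window of 1 read length, read on either strand, also occurs in a transcript of another gene. For 13 genes this holds for over 20% of windows, Atp5g1 (48.1%) and Cox7c (44.1%) after Atp5l. Genes that overlap on the other strand are among these matches, as Tssk6 for Ndufa13, so these counts are not separate from the overlaps. Ndufb2, the lowest of complex I at 1.04 CPM per kilobase, overlaps Braf on the other strand (47.5 CPM in Control) and Gm42420 on its own strand. Gm42420 holds 12.7% of the windows of Ndufb2. The level per kilobase of Ndufb2 rests on a length of 2413 bases, while the transcript used for its windows had 455. The values of Ndufb2 are therefore uncertain. Other complex I genes with a mean under 10 CPM were Ndufb4, Ndufb6 and Ndufc1, all accessory subunits, at 6.53, 13.2 and 11.98 CPM per kilobase. None of the 3 passed the test in any comparison, and their libraries overlapped between the groups in each.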

How the data were processed

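Messenger RNA of 9 mast cell libraries was sequenced as stranded paired-end libraries, per the labels' protocols. Reads were aligned with STAR 2.7.0f, and mm10, GRCm38 and limma 3.11 are also named, per the submitters' processing notes. The sources used here do not give the annotation, the counter or its strand setting. The authors deposited whole-number read counts for 15109 genes, called TMM-normalised in their name but unscaled, and log2 values. The deposited log2 values equal log2(CPM + 1) with plain totals to within 5.0e-05. Each gene listed had a count in at least 4 libraries, and 0 genes of the mitochondrial genome are listed.

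The counts were tested with edgeR 4.0.16's quasi-likelihood test (TMM factors, 1 fit of all 9 libraries, no replicate term) in R 4.3.3, with Benjamini-Hochberg adjustment over all 15109 genes and calls at an adjusted p under 0.05. Fold changes are log2 values ± SE, and levels TMM-scaled CPM. Alternatives were DESeq2 1.42.0, limma 3.58.1 on the deposited values, other scalings, filterByExpr, each pair of groups alone, a replicate term and leaving out each library. The procedure was tested on simulated counts. Coordinates and transcript lengths come from GENCODE M21, which holds 15106 of the identifiers, and promoters from RefSeq on GRCm38.p6. A limit of 3 counts is 0.213 to 0.334 CPM per library over unscaled totals, and covers counting error only. Same-numbered libraries did not deviate together (correlations from -0.108 to 0.0863), so numbers were not treated as pairs. Named genes are the up to 3 largest called changes in each direction per complex and comparison, isoform sets, core subunits, the highest gene per complex per kilobase, those under 10 CPM, and up to 4 called genes of each list. Genes named beyond this rule, such as Uqcr11, Cox7c and the other called genes, were added after their values were seen. Some single values are not reported here, but each gene stays in all counts. The members and lists were chosen with earlier results of these data known.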

Additional observations from a re-analysis of the deposited data

How the results depend on the processing

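The comparisons with Control depended on scaling, while Taxinine against BSA gave 5 or 6 lower and 0 higher subunit genes under each scaling. In BSA against Control, members called higher and lower went from 15 and 1 to 0 and 48 with total count scaling and to 0 and 47 with limma on the deposited values, all genes called from 5144 to 7977 and 7852, and the median of the subunit genes from 0.04 to -0.19 and -0.18, where the median of all genes was -0.23 and -0.18. Upper quartile scaling gave 6 higher. Leaving out 1 library gave 4 to 18 higher and 1 lower. Among the named genes called with TMM or with the other scaling, the log2 fold changes that changed sign were, with total counts and, where different, with limma in brackets, Atp5a1 -0.13, Atp5b -0.071 (-0.070), Atp5g3 -0.077 (-0.080), Atp5l -0.043 (-0.040), Atp5pb -0.071 (-0.072), Cox4i1 -0.094 (-0.092), Cox5b -0.046 (-0.041), Cox6a1 -0.063 (-0.061), Cox6b1 -0.074 (-0.071), Cox7a2l -0.084 (-0.083), Cox8a -0.043 (-0.040), Ndufa1 -0.034 (-0.027), Ndufa4 -0.18, Sdha -0.17, Sdhb -0.14, Sdhc -0.19, Uqcrc1 -0.17 and Uqcrfs1 -0.017 (-0.022). In Taxinine against Control, higher and lower counts were 0 and 65 with total counts, 0 and 64 with limma, 0 and 15 with upper quartile scaling, 2 and 7 with RLE factors, 3 and 8 with filterByExpr, 3 and 10 with the 2 groups alone and 1 and 2 with DESeq2, and 0 to 2 higher and 3 to 10 lower without 1 library. Sign changes there, by the same criterion, were Atp5a1 -0.13, Atp5b -0.083, Atp5g2 -0.18, Atp5g3 -0.14, Atp5l -0.17, Atp5pb -0.10, Sdha -0.16, Sdhd -0.18, Uqcrc1 -0.19 and Uqcrfs1 -0.17. In Taxinine against BSA, 4 to 9 were lower without 1 library, and all genes called ranged from 616 to 1281 around 1055. The sign changes with total counts and limma follow from the shift of all genes that those scalings carry; the cause of the other differences was not tested.

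The replicate numbers did not pair libraries. With the replicate block, higher and lower counts were 14 and 1 in BSA against Control, 0 and 5 in Taxinine against BSA and 1 and 9 in Taxinine against Control.

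With 3 libraries a group, an exact test of 1 value cannot go below p = 0.1. At counts of 4 to 12 a library, differences in Cox7a1 did not pass the test, and its 95% interval in Taxinine against BSA spans -0.087 to 1.75. That of Cox6a2 spans -2.25 to 2.25 in BSA against Control. Small subunit genes with pseudogene copies, and genes that overlap another on the other strand, carry a counting uncertainty that the intervals leave out.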

Other observations

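Of the 79 subunit genes, 57 were called in none of the 3 comparisons with edgeR and TMM scaling, and 51 of these had a mean of at least 10 CPM. They were 29 of the 35 genes of complex I, 4 of 4 of complex II, 6 of 8 of complex III, 7 of 15 of complex IV and 11 of 17 of ATP synthase. The log2 fold changes of the uncalled complex I genes ran from -0.16 to 0.24 in BSA against Control, from -0.35 to 0.11 in Taxinine against BSA and from -0.26 to 0.023 in Taxinine against Control. Those of ATP synthase ran from -0.088 to 0.14, from -0.24 to 0.034 and from -0.17 to 0.021. In complex IV, leaving out Cox6a2 for its low counts, they ran from -0.042 to 0.082, from -0.13 to 0.83 and from -0.15 to 0.82, with Cox7a1 the highest in both comparisons with Taxinine.

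Within the c ring genes, edgeR with TMM scaling called no change in any comparison except Atp5g3 in BSA against Control. Other settings called more. In Taxinine against Control, Atp5g1, Atp5g2 and Atp5g3 were each called in 2 of the 17 alternatives, with lowest values of -0.22, -0.18 and -0.14. In BSA against Control, Atp5g1 was called lower in 2, with a lowest value of -0.28. Atp5g2 was called higher in 2, at 0.17 without BSA replicate 1 and 0.18 without Control replicate 2. Its values over the alternatives ran from -0.10 to 0.18. At TMM scaling the summed level of the c ring genes was 186 to 199 CPM in Control, 201 to 214 in BSA and 188 to 201 in Taxinine. The order of BSA above Control rests on that scaling, and sums over plain totals are not given. With total counts Atp5g1 and Atp5g3 had values of -0.28 and -0.08 in BSA against Control.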
